A study of Rattus norvegicus with 12 samples.

Results

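Crushed rat nerve that received exosomes together with ultrasound is compared here with crushed nerve that received neither. The members were chosen by their sample titles: the libraries Exosome+Lipus-1, Exosome+Lipus-2 and Exosome+Lipus-3 against Control-1, Control-4 and Control-9, which makes 6 of the 12 RNA-seq libraries of the series, 3 in each group. The study's animals were Sprague-Dawley rats (SD in the labels), male and 5 weeks of age, and every library came from a rat whose sciatic nerve had been crushed. For the Control libraries the labels name the crush and no other treatment. The study describes a crushed group injected with PBS, and whether the Control rats were given it is not stated in their labels. For the Exosome+Lipus libraries they name an injection of 10 µL of iPSC-Exosomes at 100 µg/mL, which are vesicles shed by induced pluripotent stem cells. They add low intensity pulsed ultrasound on one side at 250 mW/cm² and 1 MHz, with a duty cycle of 20%, given for 5 minutes a day on 5 days a week over 4 weeks. The remaining libraries, 3 with the exosome injection alone (Exosome) and 3 with ultrasound alone (Lipus), enter only where they show how the genes of this comparison stand elsewhere.

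After a crush, the axons beyond the injury break down in the process called Wallerian degeneration, while the connective tissue sheath stays in place. Schwann cells, the glia that wrap peripheral axons, then leave their myelinating state, clear debris together with macrophages and form tracks along which axons grow back. Exosomes carry proteins, lipids and RNA between cells, and low intensity pulsed ultrasound delivers a mechanical stimulus to tissue.

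The description of the groups has limits. The labels give Whole Brain as the tissue, whereas the extraction protocol names the sciatic nerve. The deposited counts identify genes by Ensembl ID and do not pair any ID with a gene name. A RefSeq table of 47357 rat genes carried an Ensembl ID for 0 of them, so 0 of the 30562 IDs could be named, and markers of nerve, brain, muscle or immune cells could not be looked up. The study's methods give day 7 after surgery for RNA sampling and do not describe the groups with ultrasound. A course of 4 weeks cannot end by that day, so the sampling day of Exosome+Lipus is not known. Between Exosome+Lipus and Control alone, exosomes, ultrasound and any difference in time cannot be told apart. The labels give 1 batch for all 12 libraries. No label says that each library came from a separate animal, so the tests measure differences against the spread between these samples.

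The Control libraries held 1336954, 1299862 and 1854545 counts in replicates 1, 4 and 9. The Exosome+Lipus libraries held 1316673, 1542634 and 1403599 counts in replicates 1, 2 and 3. At this depth, 3 counts of a gene amounted to 2.01 to 2.59 CPM (the count scaled to a common normalised library size). Between 7470 genes in Control-9 and 8704 genes in Exosome+Lipus-2 had a count. Any of the 6 libraries had a count for 12383 of the 30562 IDs, and 4640 had enough counts to be tested.

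Control-9 stood apart from the other libraries. A single gene, ENSRNOG00000020644, the one with the most counts in any library, took 602028 of its counts, or 32.5% (95% Wilson interval 32.4 to 32.5%, which covers counting error only). The same gene took 2.14% of Control-1, 1.11% of Control-4, and 1.94%, 9.28% and 2.71% of Exosome+Lipus-1, Exosome+Lipus-2 and Exosome+Lipus-3. The share was thus highest in Control-9, next highest in Exosome+Lipus-2, and under 3% in the other 4 libraries, so the groups overlapped. Its log2 fold change, Exosome+Lipus over Control, was -1.97 with a standard error of 1.13 and did not pass (adjusted p = 0.447, edgeR quasi-likelihood test, Benjamini-Hochberg adjusted), and without Control-9 it was 1.62. Without the counts of this gene, Control-9 held 1252517 counts, and the other 5 libraries held between 1285419 and 1399433.

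Over the 4640 tested genes, Spearman's rho across genes, which are not independent replicates, lay between 0.962 and 0.966 for pairs of Exosome+Lipus libraries. It was 0.968 for Control-1 with Control-4, but 0.930 for Control-1 with Control-9 and 0.942 for Control-4 with Control-9. Pairs of 1 library from each group lay between 0.926 and 0.959. The mean Euclidean distance of log2 CPM was 51.3 between the groups, 51.4 within Control and 42.7 within Exosome+Lipus. Without Control-9 it was 47.1 between the groups and 38.9 between the remaining Control pair. The first principal component, with 36.2% of the variance, placed Control-9 at 42.6 and the other 5 libraries between -15.1 and -2.58. On the second, with 25.1%, Control-1 and Control-4 lay at -23.6 and -17.7, Control-9 at 4.44, and the Exosome+Lipus libraries at 1.80, 11.6 and 23.4.

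Against Control, 51 genes rose and 39 genes fell in the Exosome+Lipus libraries. These 90 of 4640 tested genes (1.94%; 1.1% higher and 0.841% lower) had an adjusted p under 0.05 in the edgeR quasi-likelihood test, Benjamini-Hochberg adjusted. Among these called genes the rises were larger than the falls. The median log2 fold change was 1.28 among the genes that rose and -0.85 among those that fell, beside a median of -0.01 over all tested genes. The test chose both lists, so this contrast is a description of the calls only. Called genes in both directions ranged from low to high counts, and most tested genes lay close to 0. In bulk tissue, more or fewer cells of a type and more or less RNA per cell cannot be told apart.

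**Figure D1:**
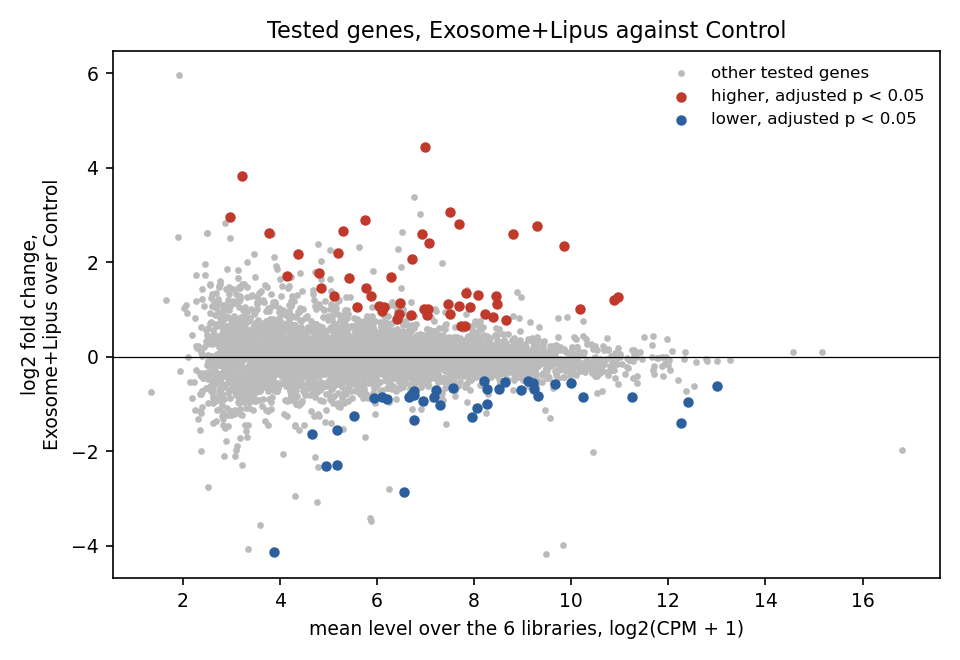
Each point is one of the 4640 tested genes, with its mean level over the 6 libraries as log2(CPM + 1) on the x axis and the log2 fold change, Exosome+Lipus over Control, on the y axis. Red points are the 51 genes that rose and blue points the 39 that fell at an adjusted p under 0.05. The red points reach 4.44 and the blue points -4.14.

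Among all tested genes, the log2 fold change was above 0 in 2290 and below 0 in 2350, and the middle 50% lay between -0.25 and 0.26. At an unadjusted p under 0.05 there were 702 genes. The study's methods call a gene at an absolute log2 fold change of 0.5 or more with a p-value no higher than 0.05. That p-value was taken here as the unadjusted p. With edgeR, 485 genes met that rule (10.5%), 274 higher and 211 lower. With DESeq2, the tool the study used, 490 genes met it when the same 4640 genes were fitted and 545 without the filter on low counts. In 870 tested genes (18.8%) each of the 3 libraries of one group exceeded each of the 3 of the other, with Exosome+Lipus above in 432 (9.31%) and below in 438 (9.44%). Among the 90 called genes the groups did not overlap in 89, all 51 that rose and 38 of the 39 that fell.

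The genes that rose had log2 fold changes from 0.65 to 4.44, with 40 genes at 1 or more, 16 of them at 2 or more, and 11 below 1. Their mean count per library had a median of 176 and ran from 9.83 to 2787. For each gene, the lowest Exosome+Lipus level was divided by the highest Control level as a measure of the gap between the groups. That ratio had a median of 1.73, ran from 1.19 to 7.60, and reached 2 or more in 18 of the 51 genes. For most of the genes that rose, therefore, the nearest libraries of the groups differed by less than 2-fold.

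IDs are given for a pair of genes in each direction, the one with the largest change and the one with the smallest p among calls whose groups did not overlap. ENSRNOG00000029079 had 17, 17 and 10 counts in Control-1, Control-4 and Control-9, and 131, 235 and 682 in Exosome+Lipus-1, Exosome+Lipus-2 and Exosome+Lipus-3. The Control libraries were uniformly low, while the treated libraries were all higher but spread widely, with replicate 3 well above replicates 1 and 2. The level rose from 11.0 ± 2.04 CPM in Control to 243 ± 206 CPM in Exosome+Lipus (mean ± SD, n = 3 each), a log2 fold change of 4.44 with a standard error of 0.75 (adjusted p = 0.00976, edgeR quasi-likelihood test, Benjamini-Hochberg adjusted). Without Exosome+Lipus-3 the log2 fold change was 3.49, and over all alternatives it ran from 3.49 to 4.83. With edgeR's robust prior in place of the standard one, its adjusted p was 0.0585, the highest over 17 alternatives. The lowest, 1.09e-77, came from the edgeR fit with no filter on low counts. In the Exosome libraries the gene had 1045, 1465 and 223 counts, and in the Lipus libraries 34, 34 and 50. Exosome-2 and Exosome-3 thus stood above every Exosome+Lipus library and Exosome-5 within their range, and the Lipus libraries lay between Control and both exosome groups.

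ENSRNOG00000024801 had 443, 471 and 297 counts in Control-1, Control-4 and Control-9, and 2916, 2123 and 1639 in Exosome+Lipus-1, Exosome+Lipus-2 and Exosome+Lipus-3. Each treated library stood well above each Control library, with replicate 1 the highest. The level rose from 304 ± 42.7 CPM in Control to 1549 ± 475 CPM in Exosome+Lipus (mean ± SD, n = 3 each), a 5.09-fold difference. The log2 fold change was 2.35 with a standard error of 0.26 (adjusted p = 0.00132, edgeR quasi-likelihood test, Benjamini-Hochberg adjusted). Its counts were 750, 774 and 434 in the Exosome libraries and 433, 565 and 743 in the Lipus libraries. Unlike the preceding gene, it was highest in the 3 Exosome+Lipus libraries, and every other library of the series lay below them.

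The genes that fell had log2 fold changes from -4.14 to -0.51, with 13 genes at -1 or lower, 4 of them at -2 or lower, and 26 within 1 of no change. Their mean count per library had a median of 255 and ran from 18 to 11102. The lowest Control level divided by the highest Exosome+Lipus level had a median of 1.43 and ran from 0.79 to 4.73. The ratio reached 2 or more in 3 of the 39 genes. The gap between the groups was therefore narrower among the genes that fell than among those that rose.

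ENSRNOG00000051237 had 51, 14 and 37 counts in Control-1, Control-4 and Control-9, and 3, 0 and 3 in Exosome+Lipus-1, Exosome+Lipus-2 and Exosome+Lipus-3. The treated libraries were at or below 3 counts, and Control-4 lay closer to them than the other Control libraries did. The level fell from 26.1 ± 14.0 CPM in Control to 1.41 ± 1.22 CPM in Exosome+Lipus (mean ± SD, n = 3 each), and the log2 fold change was -4.14 with a standard error of 0.84 (adjusted p = 0.0247, edgeR quasi-likelihood test, Benjamini-Hochberg adjusted). With counts this low the size of the fold change is uncertain. The call was lost in 4 of the 6 fits that left out 1 of these libraries, with an adjusted p from edgeR of 0.0616 without Control-1 and of 0.0697, 0.0709 and 0.102 without Exosome+Lipus-1, Exosome+Lipus-2 and Exosome+Lipus-3. Over 16 alternatives the adjusted p ran from 2.80e-07, in the edgeR fit with no filter on low counts, to 0.102. The Exosome libraries had 1, 1 and 7 counts and the Lipus libraries 10, 6 and 3, so all 9 libraries of the treated groups lay below the 3 Control libraries.

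ENSRNOG00000070747 had 542, 438 and 403 counts in Control-1, Control-4 and Control-9, and 215, 226 and 179 in Exosome+Lipus-1, Exosome+Lipus-2 and Exosome+Lipus-3. Both groups were tight and lay far apart. The level fell from 349.9 ± 34.7 CPM in Control to 143 ± 15.5 CPM in Exosome+Lipus (mean ± SD, n = 3 each), 2.44-fold lower. The log2 fold change was -1.29 with a standard error of 0.16 (adjusted p = 0.00193, edgeR quasi-likelihood test, Benjamini-Hochberg adjusted). The gene had 274, 404 and 316 counts in the Exosome libraries and 459, 766 and 555 in the Lipus libraries. The Exosome+Lipus libraries were the lowest of the 12 libraries in level, the Exosome libraries came next, and the Lipus libraries stood in or above the range of Control.

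**Figure D2:**
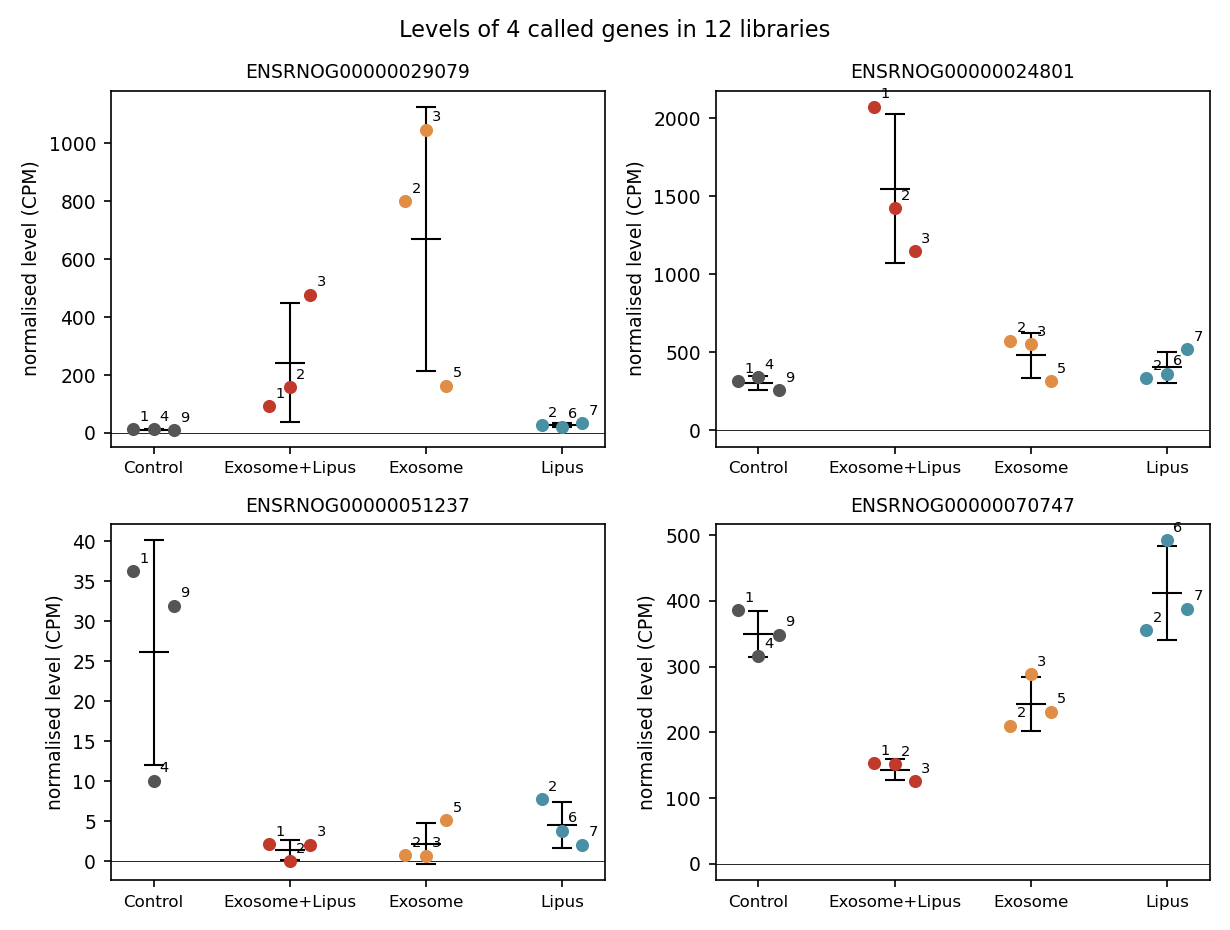
Levels in CPM of the 4 named genes in all 12 libraries, on linear axes that differ between panels. Points are libraries with their replicate number, and the bar and whiskers give the mean and SD of 3 libraries. In the upper panels the Exosome+Lipus points lie above the Control points, and in the lower panels they lie below them.

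The 1 called gene whose groups overlapped is described without its ID and was picked out once its values had been seen. It had 331, 28 and 278 counts in Control-1, Control-4 and Control-9, and 36, 35 and 26 in Exosome+Lipus-1, Exosome+Lipus-2 and Exosome+Lipus-3. Control-1 and Control-9 were high, while Control-4 sat within the range of the treated libraries. The Exosome libraries had 27, 47 and 72 counts and the Lipus libraries 44, 38 and 28, so Control-1 and Control-9 stood above every other library of the series. The log2 fold change was -2.87 (adjusted p = 0.0356, edgeR quasi-likelihood test, Benjamini-Hochberg adjusted). Without Control-9 it was -2.50 and the call was lost (adjusted p = 0.0688 from edgeR). The adjusted p was 0.0825 without Control-1 and 0.102, 0.0963 and 0.159 without Exosome+Lipus-1, Exosome+Lipus-2 and Exosome+Lipus-3, and of these 6 fits the call held in the 1 without Control-4, at -3.40 (adjusted p = 0.000418 from edgeR).

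The size of the change differed between the treated libraries. Relative to the Control mean of each gene, the median log2 level of the 51 genes that rose was 1.21 in Exosome+Lipus-1, 1.10 in Exosome+Lipus-2 and 1.46 in Exosome+Lipus-3. For the 39 genes that fell it was -0.81, -0.77 and -0.93 in the same order. Replicate 3 therefore stood furthest from Control in both directions and replicate 2 nearest. Among the genes that rose, the highest of the 3 treated libraries was Exosome+Lipus-3 in 27, Exosome+Lipus-1 in 20 and Exosome+Lipus-2 in 4. Over all tested genes the highest was Exosome+Lipus-1 in 35.7%, Exosome+Lipus-2 in 30.4% and Exosome+Lipus-3 in 34.0%, so this order did not hold across genes in general. Among the genes that fell, Exosome+Lipus-3 was the lowest of the 3 in 21, Exosome+Lipus-1 in 10 and Exosome+Lipus-2 in 8, whereas over all tested genes the lowest was Exosome+Lipus-3 in 36.3%, Exosome+Lipus-1 in 31.6% and Exosome+Lipus-2 in 32.1%.

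Within groups, the median SD of log2(CPM + 1) was larger among the genes that rose than among those that fell. Among the genes that rose it was 0.25 within Control and 0.31 within Exosome+Lipus. Among the genes that fell it was 0.18 and 0.16. The test that chose both lists weighs the size of a change against this spread, so the contrast is a description only. Control-9 was the lowest Control library in 22 of the 51 genes that rose and the highest in 16, and it was the highest in 17 of the 39 that fell and the lowest in 12. Over all tested genes it was the lowest Control library in 41.6% and the highest in 40.5%. The test that called these genes used Control-9, so these counts are a description. Its median log2 level relative to the Control mean was -0.07 for the genes that rose and 0.03 for those that fell.

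**Figure D3:**
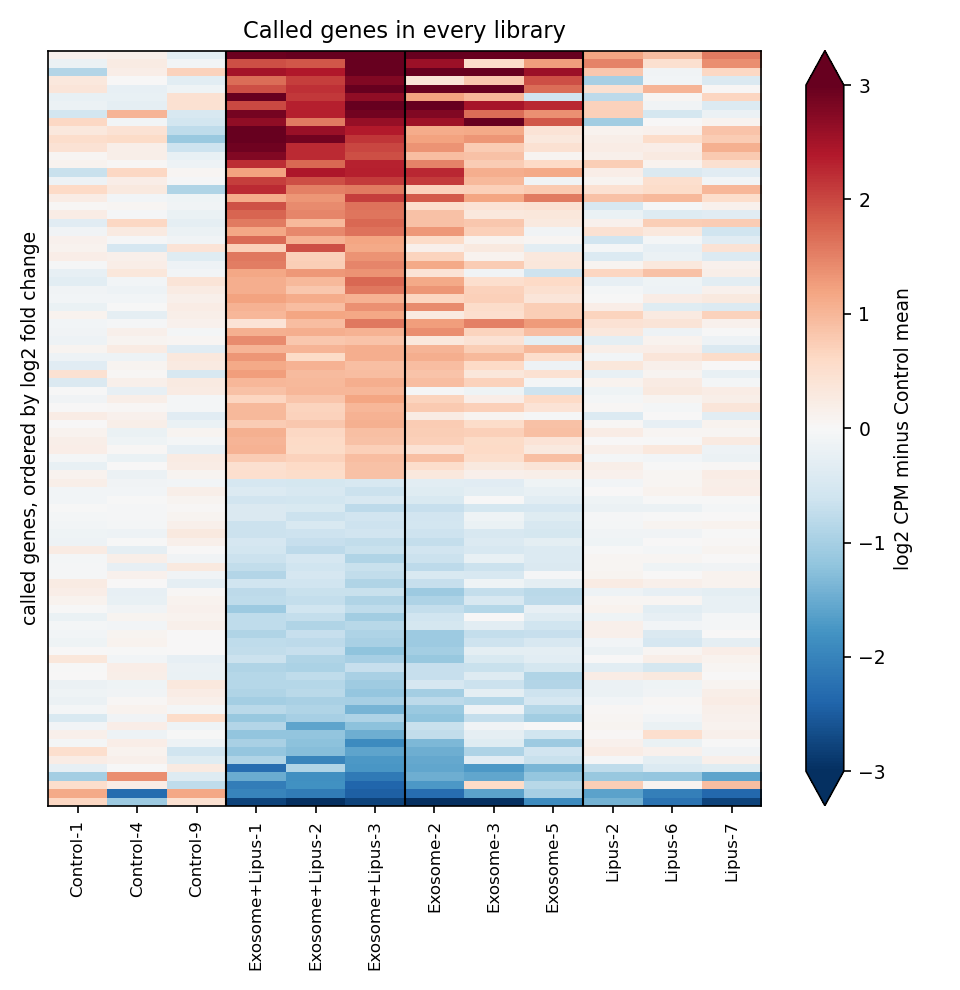
The 90 called genes as lines of the map, ordered by log2 fold change, and the 12 libraries as columns, with black lines between groups. Colour is log2 CPM minus the mean of the Control libraries, and it saturates at 3 in either direction. The Exosome+Lipus columns are red for the 51 genes that rose and blue for the 39 that fell, the Exosome columns carry paler colours of the same kind in most genes, and the Lipus columns are mostly near white.

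The same 90 genes were followed in the libraries with a single treatment. These comparisons share the Control or the Exosome+Lipus libraries with the comparison that chose the genes, so the values are set side by side as a description. For the 51 genes that rose, the median log2 level over the Control mean was 0.92, 0.70 and 0.45 in Exosome-2, Exosome-3 and Exosome-5, against 0.12, 0.09 and 0.12 in Lipus-2, Lipus-6 and Lipus-7. Exosome libraries were above all 3 Control libraries in 49, 44 and 36 of these genes (96.1%, 86.3% and 70.6%), beside 23.6%, 22.05% and 22.7% of all tested genes. Lipus libraries were above them in 15, 17 and 20 (29.4%, 33.3% and 39.2%), beside 15.7%, 16.9% and 18.1% of all tested genes, so these shares were also higher than over all genes. For the 39 genes that fell, the medians were -0.73, -0.46 and -0.52 in the Exosome libraries and -0.04, -0.07 and 0.02 in the Lipus libraries. Exosome libraries were below all 3 Control libraries in 38, 32 and 35 of these genes (97.4%, 82.1% and 89.7%), beside 22.9%, 21.9% and 23.3% of all tested genes. Lipus libraries were below them in 8, 13 and 9 (20.5%, 33.3% and 23.1%), beside 18.3%, 19.7% and 20.9% of all tested genes. At the called genes, Exosome libraries thus lay between Control and Exosome+Lipus in the median, and the Lipus medians lay between -0.07 and 0.12.

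The fitted contrasts gave the same order. The median log2 fold change over Control of the genes that rose was 0.74 for Exosome and 0.11 for Lipus, and of the genes that fell it was -0.62 and -0.03. The middle 50% of the genes that rose lay between 0.51 and 1.05 for Exosome and between -0.11 and 0.32 for Lipus. Single genes in Lipus ran from -1.03 to 1.90 among those that rose and from -2.67 to 0.53 among those that fell. In the 4 genes that fell to -2 or lower, the Lipus values were -2.67, -2.51, -1.74 and 0.53 (adjusted p = 0.999 each, edgeR quasi-likelihood test, Benjamini-Hochberg adjusted). The largest falls were thus not all near Control in Lipus. For Exosome, too, single genes departed from the order of the medians. The Exosome mean exceeded the Exosome+Lipus mean in 7 of the 51 genes that rose and lay below it in 3 of the 39 that fell. ENSRNOG00000029079 is an example, with 671 ± 456 CPM (SD, n = 3) in Exosome and 243 ± 206 CPM (SD, n = 3) in Exosome+Lipus.

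The difference between Exosome+Lipus and Exosome was tested directly, with the same fit over the 12 libraries. No gene passed, 0 of 4640 (0%), in the edgeR quasi-likelihood test, Benjamini-Hochberg adjusted. An unadjusted p under 0.05 was seen in 256 of the 4640 genes, where a fraction of 0.05 is expected if no gene differs. DESeq2, fitted to these 4640 genes, gave an adjusted p to 4183 and called 25 of them at the same adjusted threshold. Without the filter on low counts it called 20. The median log2 fold change of Exosome+Lipus over Exosome was 0.51 among the 51 genes that rose and -0.25 among the 39 that fell. The smallest adjusted p in edgeR was that of ENSRNOG00000024801, whose log2 fold change over Exosome was 1.68 (adjusted p = 0.0544, edgeR quasi-likelihood test, Benjamini-Hochberg adjusted). The labelled concentration of the injection was 100 µg/mL in Exosome+Lipus and 103, 104 and 105 µg/mL in the Exosome libraries.

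Between Exosome+Lipus and Lipus, 104 of 4640 genes (2.24%) had an adjusted p under 0.05 by the edgeR quasi-likelihood test with Benjamini-Hochberg adjustment. Of the 90 genes called against Control, 36 that rose and 29 that fell were among these, with Exosome+Lipus as the shared group. The median log2 fold change over Lipus was 1.19 among the 51 and -0.77 among the 39. In 148 tested genes (3.19%) the 3 Exosome+Lipus libraries lay beyond all 9 other libraries of the series, above them in 87 and below them in 61. Of the called genes, 23 lay above all 9 and 10 lay below. The calls were chosen by their difference from Control, whose libraries are among the 9, so these counts are a description.

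Without Control-9 more genes passed, and the called genes changed little in size. Fitted on the remaining 11 libraries, 66 genes rose and 56 fell, 122 of 4822 tested (2.53%), at an adjusted p under 0.05 by the edgeR quasi-likelihood test with Benjamini-Hochberg adjustment. Of the 90 genes, all of which were tested again, 72 were called, 38 that rose and 34 that fell, while 18 were not and 50 other genes were added. The 18 lost genes had an adjusted p between 0.0534 and 0.1125 without Control-9, with 15 of them under 0.1.

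The absolute log2 fold change of the 90 genes moved by between -0.37 and 0.38 when Control-9 was left out, with a median of -0.03, and it moved by no more than 0.25 in 78 of them. It became smaller in 56 genes and larger in 34. The median log2 fold change was 1.29 for the 51 genes that rose and -0.83 for the 39 that fell, beside 1.28 and -0.85 with all libraries. When only the remaining 5 libraries of Control and Exosome+Lipus were fitted, 57 genes rose and 32 fell, 89 of 4551 (1.96%), and 59 of the 90 genes were called again. The fit of these groups alone with Control-9 kept, 6 libraries, called 37 genes, so in that form leaving out Control-9 raised the count from 37 to 89. With the largest gene removed from the counts and Control-9 kept, 92 genes passed, all 90 among them.

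**Figure D4:**
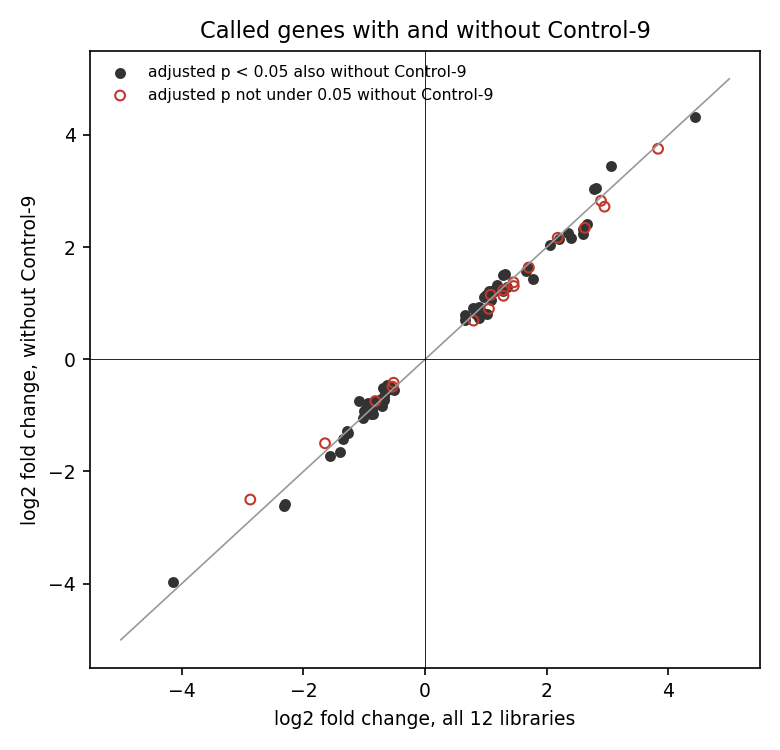
The log2 fold change of the 90 called genes with all 12 libraries on the x axis and without Control-9 on the y axis, with the line of equal values in grey. Filled points are the 72 genes called in both fits, and open red points are the 18 with an adjusted p that was not under 0.05 without Control-9. The log2 fold changes differ in size by no more than 0.25 in 78 of the 90.

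The number of calls moved further when some other libraries were left out. It was 39 without Control-4, 30 without Exosome+Lipus-1, 49 without Exosome+Lipus-2 and 17 without Exosome+Lipus-3, and 72 without Control-1. Without Exosome+Lipus-1, Exosome+Lipus-2 and Exosome+Lipus-3, 7, 10 and 2 of the 39 genes that fell were called again. The counts among the 51 that rose were 23, 34 and 15. Without Control-4, 14 of the 39 and 21 of the 51 were called again, and without Control-1, 20 and 31. With Control-9 left out, the counts were 34 of the 39 and 38 of the 51. Whether the 39 and the 51 differ in how often they were called again was not tested. Of the 90 genes, 17 were called in each of the 6 fits that left out 1 library, 15 that rose and 2 that fell. Their absolute log2 fold changes ran from 1.01 to 4.44, and the 15 that rose had a median of 2.35 in the fit of all 12 libraries. A further 8 genes, 5 that rose and 3 that fell, were called in none of the 6 fits.

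**Figure D5:**
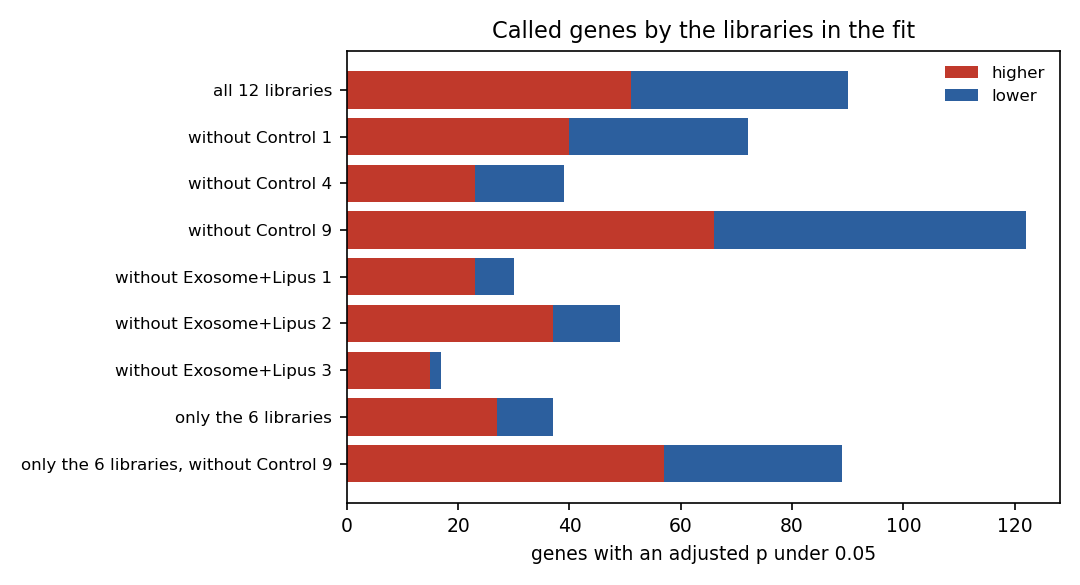
Genes called at an adjusted p under 0.05 for Exosome+Lipus against Control, as a count on the x axis, for each choice of libraries in the fit. Red bars are genes that rose and blue bars genes that fell. The bar is longest without Control-9, at 122 genes, and shortest without Exosome+Lipus-3, at 17.

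The tool and the filter also moved the count: DESeq2 fitted to the same 4640 genes called 195, 89 of the 90 among them, and edgeR with no filter on low counts called 254. Of those 254, 241 were among the 4640 genes and 13 were not, so most of the added calls were on genes that the filter had kept. The fit with no filter also gave ENSRNOG00000020644, whose groups overlapped, an adjusted p of 1.14e-50 (edgeR quasi-likelihood test, Benjamini-Hochberg adjusted). A call in that fit therefore does not show that the groups separate. In edgeR's fit of the 4640 genes, the spread between replicates came from all 12 libraries. With the 6 libraries of Control and Exosome+Lipus alone, 37 genes passed, 27 that rose and 10 that fell, and 34 of them were among the 90. The share of calls that rose was 56.7% with all 12 libraries and 73.0% with these 6. It was 76.7%, 75.5% and 88.2% without Exosome+Lipus-1, Exosome+Lipus-2 and Exosome+Lipus-3, so the share was higher in each of these fits. It was 55.6%, 59.0% and 54.1% without Control-1, Control-4 and Control-9, and 51.3% with DESeq2 fitted to the same 4640 genes.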

How the data were processed

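Raw counts per gene were deposited by the authors, 1 column for each library, after trimming with Trimmomatic (version 0.38) and alignment with HISAT2 (version 2.0.5). The labels name the build Rnor_6.0, and whether the gene IDs come from an annotation of that build could not be checked. The counting tool and annotation are not stated, and SAMtools and StringTie are named without a role. Groups came from the sample titles, and all 12 columns were matched to a library by name. The members and lists were chosen with earlier results of these data known.

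Counts were filtered with filterByExpr, normalised with TMM factors (0.626 for Control-9, 0.973 to 1.08 for the other 5 libraries of the comparison) and tested with edgeR (version 4.0.16, R version 4.3.3). Its quasi-likelihood test used 1 mean per group over all 12 libraries, the contrast Exosome+Lipus minus Control, and Benjamini-Hochberg adjustment over the 4640 genes tested. Beyond counting error, the coefficient of variation between replicates was 22.7%. Each library was used as 1 sample. CPM were computed on normalised library sizes, and distances, principal components and relative levels were taken from log2 CPM after adding a prior count of 2. Standard errors were obtained by dividing the absolute log2 fold change by the root of F. Intervals and floors cover counting error only.

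Genes to name were, in each direction, the one with the largest change and the one with the smallest p among calls without overlap, limited to a pair because IDs have no names, plus the gene with the most counts in any library. Lists of pathway and marker genes had been drawn up and could not be used without names. The alternatives were DESeq2 (version 1.42.0) with and without the edgeR filter, factors by RLE or upper quartile, a fit with no filter and one of genes with 10 or more counts in every library, the 6 libraries alone, the fit without the largest gene, edgeR's robust prior, and each replicate left out in turn. The steps were tested on simulated data in which every gene had the same spread between replicates and no library stood apart. That test therefore does not cover a library such as Control-9.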

Additional observations from a re-analysis of the deposited data

How the results depend on the processing

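DESeq2 without the edgeR filter, which gave an adjusted p for 4860 genes, called 184 (96 higher, 88 lower), all 90 among them. On the 4640 genes of that filter, an alternative added after seeing the data, DESeq2 called 195 (100 higher, 95 lower), 89 of the 90 among them. EdgeR with no filter called 254 (141 higher, 113 lower), 87 of the 90 among them. The 6 libraries alone gave 37 (27 higher, 10 lower). RLE and upper quartile factors each gave 89, at least 10 counts in every library gave 96 (81 of the 90 were tested there, and all 81 were called), and removing the largest gene gave 92. The robust prior gave 90, of which 84 were shared. The range with each replicate left out was 17 to 122 for all calls, 15 to 66 for those higher and 2 to 56 for those lower. It was 429 to 604 for the study's threshold and 1221 to 1590 for genes without overlap, where fewer libraries make separation easier. The study's threshold gave 829 genes with no filter. Another alternative added after seeing the data left out Control-9 and Exosome+Lipus-2 together and gave 59 calls (40 higher, 19 lower). ENSRNOG00000024801 (2.08 to 2.51) and ENSRNOG00000070747 (-1.35 to -1.20) passed in 17 of 17 alternatives, ENSRNOG00000029079 (3.49 to 4.83) in 16 of 17 and ENSRNOG00000051237 (-4.54 to -3.40) in 11 of 16. The log2 fold change of ENSRNOG00000020644 was -3.04 to 1.62 with each replicate left out and turned positive in each fit without Control-9. It was 1.62 in the 11 libraries, 1.62 in the 5 libraries and 0.54 without Control-9 and Exosome+Lipus-2. With no filter its value was -1.97, with an adjusted p of 1.14e-50 (0.781 at the highest over the alternatives). The cause of these shifts was not tested. No paired analysis was possible because Control and Exosome+Lipus share only replicate number 1. The filter on low counts left 7743 genes with a count in the 6 libraries untested.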

Other observations

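A further 7743 genes had a count in the 6 libraries but too few to be tested. Of these, 79 had a count in all 3 Exosome+Lipus libraries and in no Control library, with a sum over the treated libraries that had a median of 6 and a maximum of 17 counts. The reverse, a count in all 3 Control libraries and none in Exosome+Lipus, was seen in 35 genes, with a median sum of 5 and a maximum of 12. Of the 79, a count in all 3 Exosome libraries was seen in 13 and in all 3 Lipus libraries in 9, while 20 had no count in any Exosome library and 16 none in any Lipus library. No size of change is given for genes with so few counts.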
